A study of Saccharomyces cerevisiae with 25 samples.

Results

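The cytosolic ribosomal protein genes of budding yeast (Saccharomyces cerevisiae) are described here in a set of 25 Affymetrix expression arrays of strains lacking single subunits of the Ccr4-Not complex. The members were taken by symbol: genes named RPL or RPS with a number, and the stalk genes RPP0, RPP1A, RPP1B, RPP2A and RPP2B, each measured by a probe set that the platform annotation gives to that gene alone. Of 137 such genes in the reference annotation, 80 met this rule, out of 5656 genes tested on the arrays. The large subunit supplied 47 of them, the 5 stalk genes included, and the small subunit 33. The other 57 genes were represented by probe sets shared between near-identical copies, or by none used here, and RPL40A and RPL40B, which encode ubiquitin fusions, are among them.

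Total RNA was taken from null strains labelled caf1, caf130, ccr4, not2 and not4 and from wild type 30 min after the cells had used up the glucose of a rich medium. The same strains, and the not3 and not5 null strains, were also sampled in exponential phase in that medium, again with wild type. There were 14 groups in all, 11 of 2 independently prepared arrays and 3 of 1 array (caf1 after depletion, not4 and not5 in exponential phase). The labels give neither the parent strain nor the markers used for the deletions.

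A ribosome is built from a small subunit, which reads the messenger RNA, and a large subunit, which joins the amino acids, and it needs its proteins in matched amounts. Many of the genes occur in yeast as pairs of paralogs left by an ancient genome duplication, with an A and a B copy that often encode nearly the same protein. Their transcription depends on Rap1, Fhl1, Ifh1 and Sfp1, follows the TOR and protein kinase A pathways that sense nutrients, and is known to drop when glucose runs out. Ccr4 and Caf1 (gene POP2) are the deadenylases that shorten poly(A) tails before mRNAs decay, Not2 (gene CDC36), Not3 and Not5 belong to the scaffold around Not1, and Not4 (gene MOT2) is a ubiquitin ligase that acts on the small-subunit protein Rps7.

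Values are deposited log2 signals, and every difference below is on that log2 scale, tested with limma over all genes and called at a Benjamini-Hochberg adjusted p under 0.05. The deleted genes read low in their own strains, for example CDC36 at 3.01 to 3.81 on the 4 not2 arrays, against 8.02 to 8.42 on the 4 wild-type arrays. CAF130 went against its label, with 5.63 to 6.60 on the 4 arrays labelled caf130, against 5.30 to 5.76 in wild type, so these are called the caf130-labelled arrays throughout. Levels of different probe sets are not set against each other. In a bulk culture, fewer cells with a transcript and less of it per cell cannot be told apart. Every comparison of a strain with wild type in 1 condition uses the same 2 wild-type arrays, so these comparisons are not independent.

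The median of these genes was lower on every depletion array than on any exponential array. Single members did not all follow, and RPL15B overlapped between the conditions in wild type. The median of the 80 members was 8.39 to 10.40 on the 11 depletion arrays, against 10.72 to 11.68 on the 14 exponential arrays, with no overlap. Among the depletion arrays, the not4 arrays had medians of 10.40 and 9.89, the ccr4 arrays 9.75 and 9.82, the caf1 array 9.65, the not2 arrays 8.81 and 8.39, and the caf130-labelled arrays 8.61 and 8.83, against 9.38 and 9.23 in wild type. The medians of the not4 and ccr4 arrays thus lay above both wild-type arrays, and those of the not2 and caf130-labelled arrays below them. The caf1 array lay above wild type for the small-subunit median (9.86, against 9.30 and 9.43) and below it for the large-subunit median (9.07, against 9.41 and 9.13), with 41 of its 80 members under the wild-type mean. Large-subunit medians were 8.38 to 10.44 after depletion, against 10.69 to 11.66 in exponential phase. Small-subunit medians were 8.44 to 10.36 after depletion, against 10.74 to 11.68 in exponential phase.

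**Figure D1:**
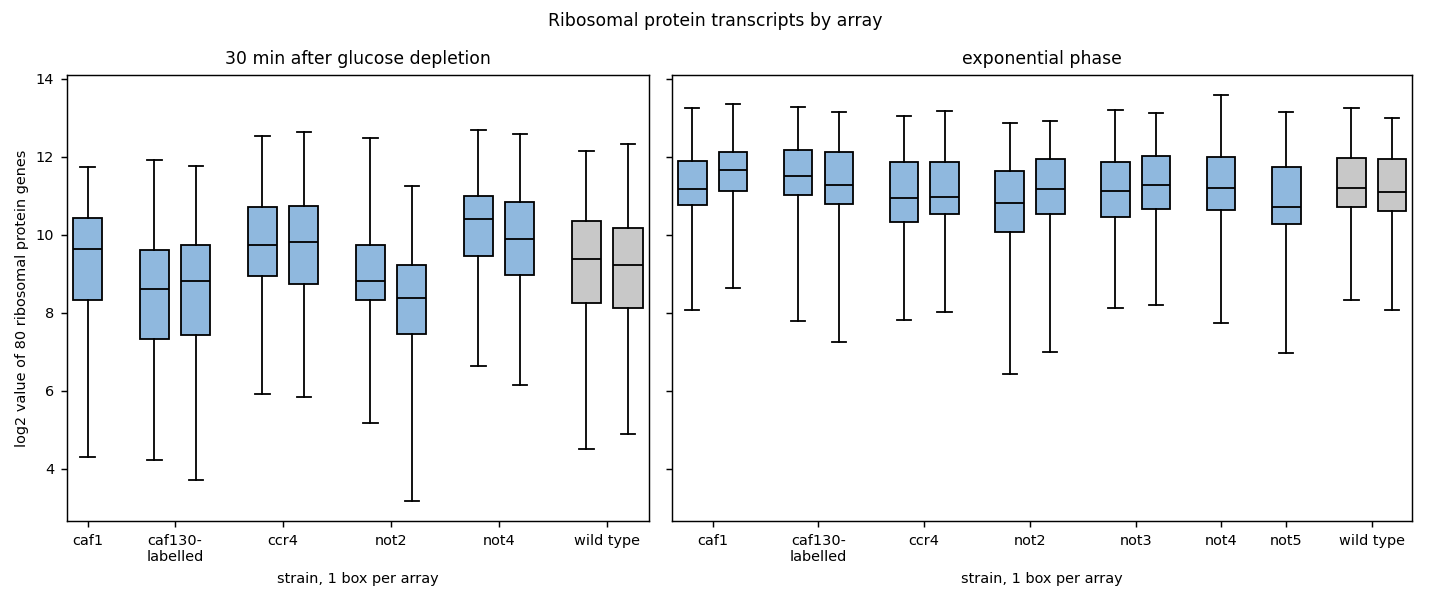
Log2 values of the 80 ribosomal protein genes on each array, after glucose depletion (left panel, 11 arrays) and in exponential phase (right panel, 14 arrays). Each box is 1 array, with the median, the quartiles and whiskers to the lowest and highest member; wild type is grey and stands right of the other strains. Depletion medians run from 8.39 to 10.40, all under the lowest exponential median of 10.72.

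In wild type, 74 of the 80 members fell with glucose depletion and none rose, by a median of -2.01, where 18.7% of all genes tested were called lower and the median of all genes was 0.02. By subunit, 42 of 47 large-subunit members were called lower (median -2.03), and 32 of 33 small-subunit members (median -1.74). Genes without a paralog gave 17 of 18 (median -1.83) and genes with a measured paralog 57 of 62 (median -2.04). The 5 lowest members were RPL7B, RPS9B, RPS9A, RPS26B and RPS13.

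RPS9B and RPS9A encode a protein of the small subunit that helps to keep decoding accurate. RPS9B read 7.01 and 6.90 after depletion, against 10.86 and 10.92 in exponential phase (2 arrays each), a change of -3.93 ± 0.29 (limma standard error, adjusted p = 8.88e-09). Each limma standard error draws on the spread within all groups of 2 arrays, not on the compared arrays alone. RPS9A read 5.59 and 5.02, against 8.78 and 8.82 (-3.50 ± 0.35). Both changes come from family probe sets (names ending in _f_at), whose probes can also take up the transcript of a related gene. On the other set of RPS9B, which is not a family set, the change was -5.35. RPL7B, which encodes a large-subunit protein, read 4.51 and 4.89 after depletion, against 8.96 and 8.46 (-4.01 ± 0.35, adjusted p = 5.8e-08). RPS26B, for a protein at the exit of the mRNA channel, read 5.90 and 5.85, against 9.20 and 9.44 (-3.44 ± 0.38). RPS13, a small-subunit gene without a paralog, changed by -3.25 ± 0.28. The probe sets disagreed for 2 members: RPL7A was called lower by -1.84 ± 0.37 on the set used and by -2.62 on a family set, but was 0.36 on another set and not called there, and RPS10B was called at -1.58 ± 0.33 on 1 set and not at -0.63 on the other.

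RPL22B, RPS14B, RPS28B and RPL30, whose RNAs are known to be regulated by the proteins they encode or by those of their copies, fell in wild type, and so did the paralogs RPL22A, RPS14A and RPS28A. RPL22A changed by -3.14 ± 0.28 and RPL22B by -2.15 ± 0.33, RPS14B by -2.12 ± 0.26 and RPS14A by -1.14 ± 0.26, RPS28B by -1.62 ± 0.26 and RPL30 by -1.58 ± 0.25. RPS28A had the smallest change of these, -0.83 ± 0.25, and its adjusted p of 0.0108 became 0.0637 without wild-type exponential replicate 1 and 0.0682 without wild-type depletion replicate 2. The ubiquitin fusion gene RPS31 changed by -2.06 ± 0.33. RPS7A and RPS7B, for the protein that Not4 marks with ubiquitin, changed by -2.87 ± 0.29 and -2.78 ± 0.35.

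The 6 members not called in wild type were RPL15B, RPP2B, RPP1A, RPL37B, RPS12 and RPL9B, of which RPS12 and RPL9B were named here after their values were seen. RPP1A and RPP2B belong to the stalk, the flexible arm of the large subunit that recruits elongation factors. RPP0, which anchors the stalk, read 11.31 and 11.61 after depletion, against 12.43 and 12.60 in exponential phase (-1.06 ± 0.22, adjusted p = 0.000836). RPP2B read 11.77 and 11.92, against 12.17 and 12.11, and was not called (-0.29 ± 0.25, adjusted p = 0.382). RPP1A was not called either, at -0.63 ± 0.25 (adjusted p = 0.0545). Of the stalk genes, 3 of 5 were called lower, with a median of -0.75. RPP1B (-0.75 ± 0.26, adjusted p = 0.0267) lost its call without any 1 of the 4 wild-type arrays, at adjusted p of 0.0547 to 0.165. RPP2A (-1.59 ± 0.49, adjusted p = 0.0141) lost it without exponential replicate 1 (0.0566), exponential replicate 2 (0.0658) or depletion replicate 2 (0.0827). RPL37B was at -0.67 ± 0.31 (adjusted p = 0.0909). RPL15B, the dispensable copy of a large-subunit gene pair, read 8.69 and 9.08 after depletion, against 8.83 and 8.85 in exponential phase, so its arrays overlapped (0.05 ± 0.30, adjusted p = 0.92).

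The fall appeared in all 6 strains sampled in both conditions, and its size differed between them. Depletion against exponential phase called 73 members lower in caf1 (median -2.08, where 13.9% of all genes were called lower), 79 in the caf130-labelled strain (-2.88, 26.9%), 56 in ccr4 (-1.15, 13.3%), 80 in not2 (-2.43, 25.4%) and 53 in not4 (-1.20, 18.3%). Large and small subunits had medians of -2.23 and -1.89 in caf1, -3.05 and -2.72 in the caf130-labelled strain, -1.13 and -1.22 in ccr4, -2.48 and -2.24 in not2 and -1.10 and -1.22 in not4. The medians of ccr4 and not4 were thus the smallest in both subunits, and those of the caf130-labelled strain the greatest. By gene, 39 members were called lower in all 6 strains, 24 in 5, 12 in 4 and 3 in 3 strains (RPL9B, RPP1A and RPP2B). RPL15B and RPL37B were called lower in 2 strains each.

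RPP2A was the sole member called higher after depletion in any of the 6 strains, in not4, where 12.9% of all genes were called higher. It read 10.10 and 10.48 after depletion in not4, against 8.36 on the single exponential not4 array (1.93 ± 0.60, adjusted p = 0.0195). That exponential array stands apart, since RPP2A read 11.55 to 12.32 on the other 13 exponential arrays, and without not4 depletion replicate 2 the adjusted p was 0.0683. RPP2A was also low on 2 depletion arrays, 7.66 on the caf1 array and 7.54 on ccr4 replicate 2, while ccr4 replicate 1 read 10.31 and wild type 10.37 and 10.16.

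The order of the members was more alike between some strains than others, given here as a description over 80 genes that share arrays within a strain and are not independent. The changes with depletion correlated between the caf130-labelled strain and wild type with Pearson's r of 0.928 (Spearman's rho 0.923). For caf1 and wild type r was 0.69 (rho 0.703), for ccr4 and wild type 0.596 (0.609), for not2 and wild type 0.579 (0.568), and for not4 and wild type 0.502 (0.579). The lowest r, 0.077, was that of ccr4 and not4 (rho 0.293), although their medians were close. These pairs of strains share no array. RPP2A changed by 1.93 in not4 and by -3.05 in ccr4, each with an array on which it read low. The value of r without RPP2A was not tested.

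**Figure D2:**
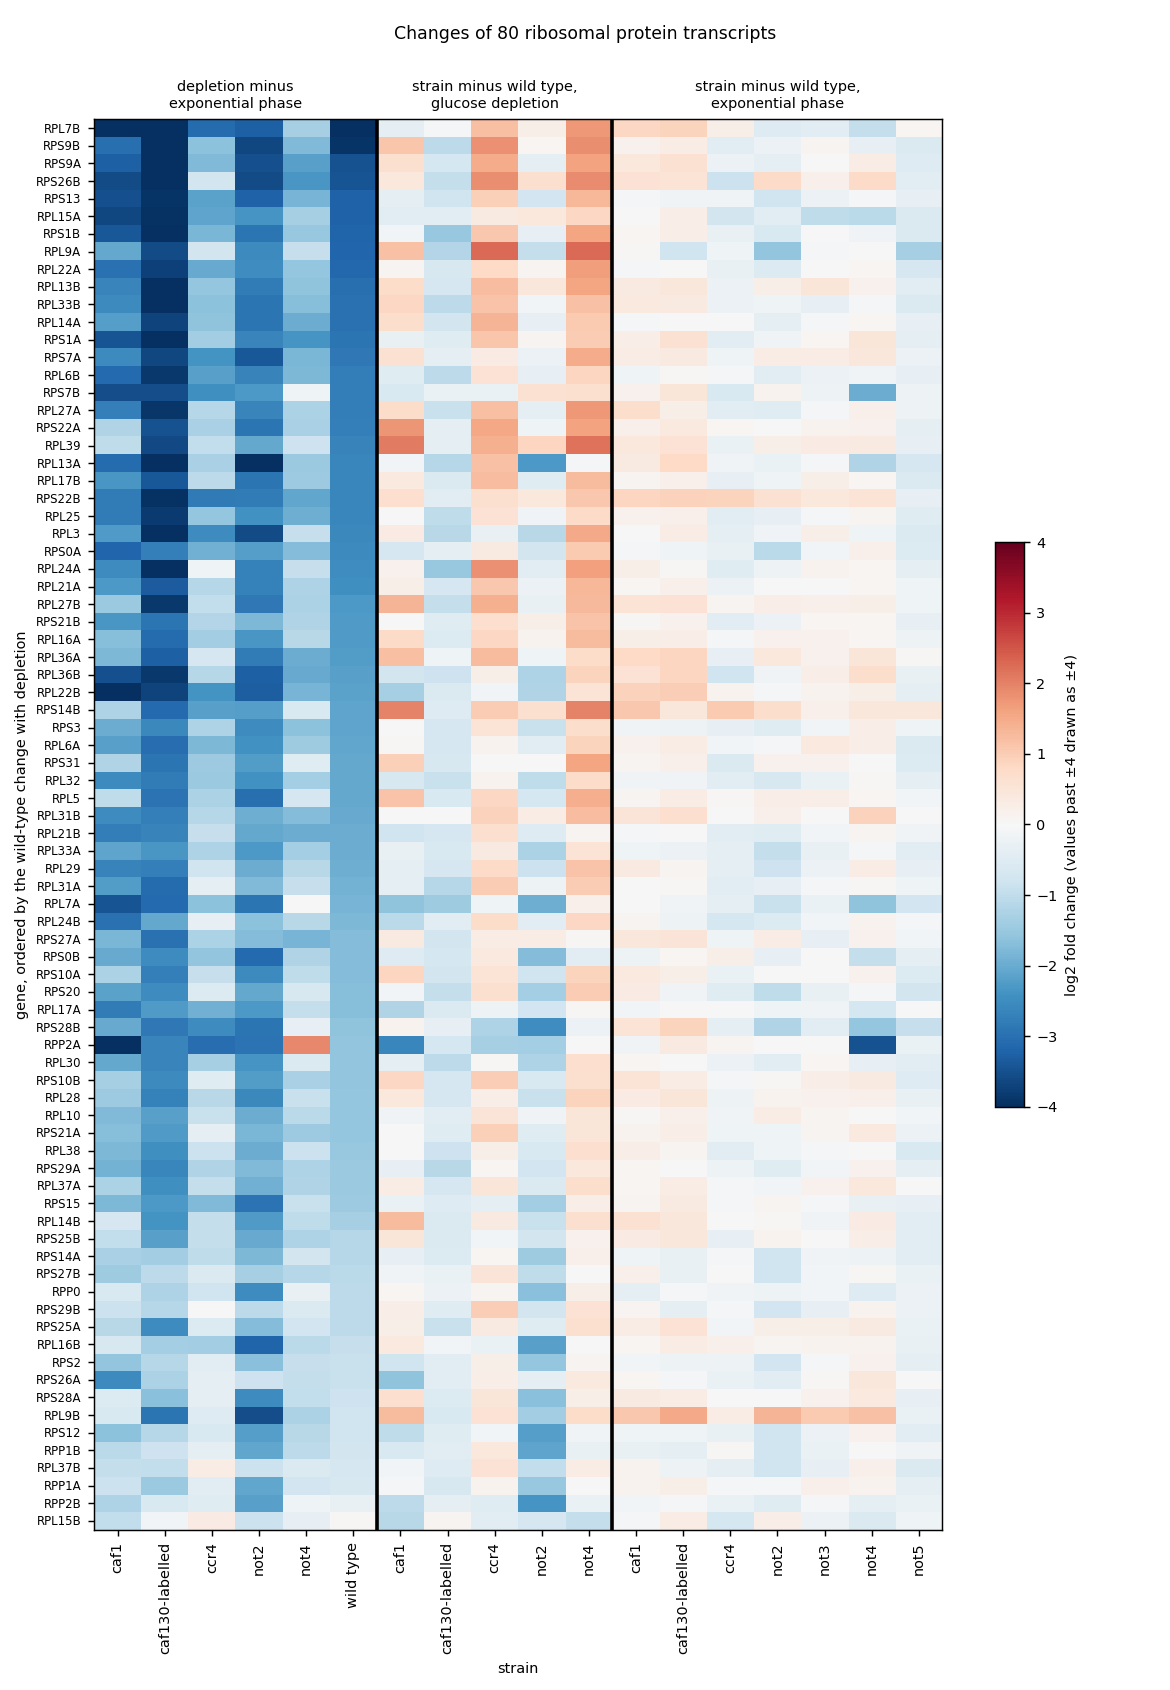
Log2 fold changes of the 80 members (rows, ordered by the wild-type change with depletion) in 18 comparisons (columns): depletion minus exponential phase in 6 strains, strain minus wild type after depletion in 5 strains, and strain minus wild type in exponential phase in 7 strains. Blue is lower and red higher, and values past 4 in size are drawn as 4. The first block is blue in nearly every row, the ccr4 and not4 columns after depletion are mostly red (28 and 32 members called higher), and the not2 column is mostly blue (33 called lower).

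After glucose depletion, 28 of the 80 members were called higher in ccr4 than in wild type, 2 lower and 50 not called, with a median of 0.55 and 67 above 0, where 15.2% of all genes were called higher and 11.8% lower and their median was 0.06. Large-subunit genes gave 18 of 47 higher (median 0.58) and small-subunit genes 10 of 33 (median 0.53), while none of the 5 stalk genes was higher. RPS9B read 8.80 and 8.78 in ccr4, against 7.01 and 6.90 in wild type (1.83 ± 0.29, adjusted p = 0.000192, a 3.56-fold difference). RPL9A read 7.26 and 7.55, against 5.07 and 5.21 (2.27 ± 0.45, adjusted p = 0.00122). RPS26B (1.85 ± 0.38, adjusted p = 0.00167) and RPL24A (1.84 ± 0.36, adjusted p = 0.00128), a gene for a protein that joins the large subunit late, were called higher as well.

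The members lower in ccr4 were RPS28B and RPP2A. RPS28B, whose mRNA is known in yeast to be degraded through its own protein and Edc3, read 8.63 and 8.56 in ccr4, against 9.91 and 9.78 in wild type (-1.25 ± 0.26, adjusted p = 0.00183). The call of RPP2A (-1.34 ± 0.49, adjusted p = 0.0482) rested on ccr4 replicate 2: without it the difference was 0.04, and the ccr4 and wild-type arrays overlapped. This call was also lost without wild-type depletion replicate 1 (difference -1.24) or replicate 2 (-1.44), and without many single arrays outside the comparison. The count of 30 calls became 19 without ccr4 depletion replicate 1, 11 without ccr4 depletion replicate 2, 19 without wild-type depletion replicate 1 and 13 without wild-type depletion replicate 2, most of them higher in ccr4 each time.

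In not4 after depletion, 32 of the 80 members were called higher than in wild type, 1 lower and 47 not called, with a median of 0.75 and 72 above 0, where 5.92% of all genes were called higher and 6.22% lower and their median was -0.06. Large-subunit genes gave 20 higher (median 0.82) and small-subunit genes 12 (median 0.64), and again none of the stalk genes was higher. RPL39, for a small protein in the wall of the peptide exit tunnel, read 10.50 and 9.35 in not4, against 8.07 and 7.41 in wild type (2.18 ± 0.37, adjusted p = 0.000679). RPS14B read 10.36 and 9.74, against 8.27 and 7.86 (1.98 ± 0.26, adjusted p = 4.62e-05). RPL9A read 7.62 and 7.21, against 5.07 and 5.21 (2.27 ± 0.45, adjusted p = 0.00239). RPS9B (1.85 ± 0.29, adjusted p = 0.000307) and RPS26B (1.89 ± 0.38, adjusted p = 0.0028) were called higher too.

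RPS7A was called higher in not4, with 10.80 and 9.74, against 8.87 and 8.68 in wild type (1.50 ± 0.29, adjusted p = 0.00215). RPS7B was not, with 9.39 and 7.99, against 8.08 and 8.04, and its not4 arrays lay on both sides of wild type. RPL15B was lower, with 7.44 and 8.44 against 8.69 and 9.08 (-0.95 ± 0.30, adjusted p = 0.0411), and lost its call without any 1 of 13 arrays, among them not4 depletion replicate 1 (-0.45, adjusted p = 0.425). Replicate 1 of not4 read above replicate 2 in the members' medians. The total of 33 calls became 15 without not4 depletion replicate 1, 17 without wild-type depletion replicate 1 and 13 without wild-type depletion replicate 2, all of them higher in not4.

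In not2 after depletion, 33 of the 80 members were called lower than in wild type, none higher and 47 not called, with a median of -0.62, where 14% of all genes were called lower and the median of all genes was 0.01. Large-subunit genes gave 19 lower (median -0.61) and small-subunit genes 14 (median -0.62). The stalk had 5 of 5 genes lower, with a median of -1.66, and the other large-subunit genes 14 of 42, with a median of -0.50. RPP2B read 9.82 and 9.14 in not2, against 11.77 and 11.92 in wild type (-2.37 ± 0.25, adjusted p = 1.42e-06). RPP0 read 9.60 and 9.98, against 11.31 and 11.61 (-1.66 ± 0.22, adjusted p = 2.2e-05). RPP1B (-2.12 ± 0.26) and RPP1A (-1.51 ± 0.25) were called lower as well, as was RPP2A (-1.37 ± 0.49, adjusted p = 0.0424), whose call was lost in 10 of the 22 fits that leave out 1 array.

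The greatest difference in not2 was that of RPS28B, with 7.21 and 7.49 in not2, against 9.91 and 9.78 in wild type (-2.50 ± 0.26, adjusted p = 1.44e-06, or 0.177 of the wild-type signal). Its paralog RPS28A was lower too, with 8.62 and 8.34 against 10.20 and 10.13 (-1.69 ± 0.25). RPL13A, for a large-subunit protein, read 5.59 and 5.28, against 7.86 and 7.63 (-2.31 ± 0.29, adjusted p = 9.87e-06). The single-copy small-subunit gene RPS12 read 9.34 and 7.96, against 10.80 and 10.92 (-2.21 ± 0.32, adjusted p = 4.77e-05). All 4 genes were among the 33 called lower in not2. By contrast RPS9B, which was higher in ccr4 and not4, read 7.37 and 6.68 in not2, on both sides of the wild-type values. The count of 33 became 20 (19 lower, 1 higher) without not2 depletion replicate 2, and 19 without wild-type depletion replicate 1 or replicate 2, and the median was -0.99 without not2 depletion replicate 1 and -0.26 without replicate 2.

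**Figure D3:**
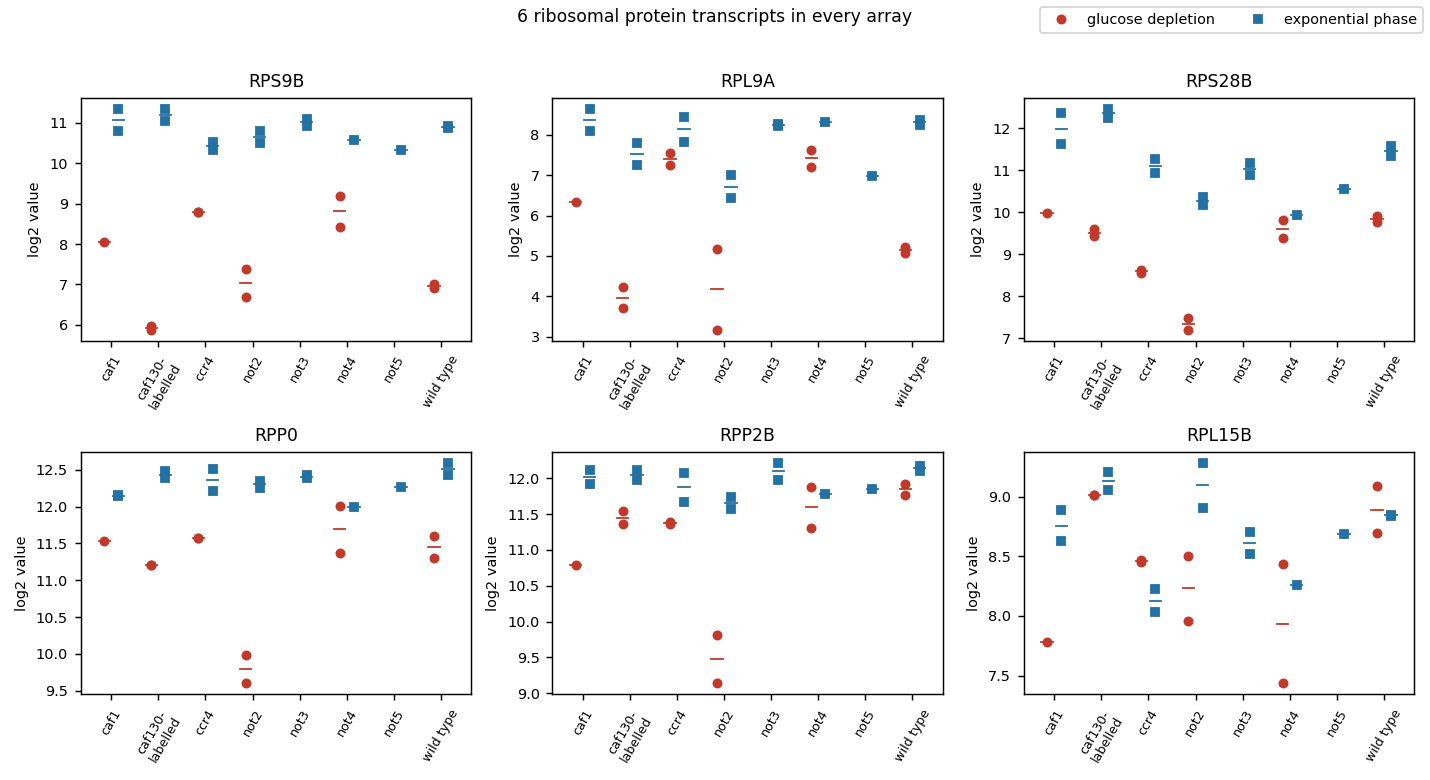
Log2 values of 6 ribosomal protein genes on every array, by strain, with glucose depletion as red circles left of exponential phase as blue squares; lines mark group means, and not3 and not5 have exponential arrays alone. RPS9B and RPL9A are higher after depletion in ccr4 and not4 than in wild type, RPS28B, RPP0 and RPP2B are lowest after depletion in not2, and RPL15B overlaps between the conditions in wild type.

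The single caf1 depletion array gave calls in both directions. Against wild type, 7 members were called higher and 8 lower (median -0.01), where 8.03% of all genes were called higher and 5.36% lower. RPS14B read 10.04 on the caf1 array, against 8.27 and 7.86 in wild type (1.97 ± 0.32, adjusted p = 0.00111). It kept its call in each fit with 1 array left out, though none of these left out the caf1 array itself. RPL39 (2.09 ± 0.45), RPS22A (1.75 ± 0.34), RPS26A (-1.60 ± 0.35, and -0.97 and not called on its family set) and RPP2A (-2.60 ± 0.60) lost theirs without wild-type depletion replicate 2, at adjusted p of 0.086, 0.0603, 0.0726 and 0.0572. RPL7A (-1.62 ± 0.46), RPL22B (-1.34 ± 0.40) and RPL14B (1.28 ± 0.41) lost theirs without either wild-type depletion array, RPL14B also without any 1 of 10 other arrays, and RPL7A was at -0.54 and -0.43 on its other probe sets, neither called. The 15 calls became 7 without wild-type depletion replicate 1, 1 without wild-type depletion replicate 2 and 8 without the caf130-labelled arrays, which enter only through the shared estimate of the spread.

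The caf130-labelled depletion arrays gave no call among the members after depletion, although their median was -0.63 and 79 of 80 were below wild type, where 0.0354% of all genes were called by limma. At an unadjusted p under 0.05 there were 40 of 80 members, all below wild type, where 2.62% of all genes were lower at that threshold.

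The response to depletion itself was compared with that of wild type by an interaction term. In ccr4, the response of 17 members was called higher (less negative) than in wild type and of none lower (median 0.70), where 11.6% of all genes had a difference called higher and their median was 0.14. Here RPS26B led, with a response of -0.74 in ccr4, not called in itself (adjusted p = 0.136), against -3.44 in wild type (difference 2.71 ± 0.54, adjusted p = 0.0027), followed by RPL9A (2.44 ± 0.63, adjusted p = 0.0121), RPL24A (2.31 ± 0.51, adjusted p = 0.00476) and RPS9B (2.30 ± 0.41, adjusted p = 0.00128). Part of the RPS26B difference came from exponential phase, where it read 8.39 and 8.54 in ccr4, against 9.20 and 9.44 in wild type. RPL9A lost its call without ccr4 exponential replicate 1 (0.0691) or ccr4 depletion replicate 2 (0.0563). The count of 17 became 6 without ccr4 exponential replicate 1, 9 without wild-type exponential replicate 1, 4 without ccr4 depletion replicate 2, and 10 without either wild-type depletion array, while it was 29 without either not2 depletion array. These last arrays enter through the spread alone.

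In not2, the response of 11 members was called lower (more negative) than in wild type and of none higher, where 4.54% of all genes had a difference called lower. The median difference of the members was -0.32, against -0.15 over all genes. That of the members turned to 0.0646 without not2 depletion replicate 2. RPL9B led with -2.76 ± 0.50 (adjusted p = 0.00206): it read 6.44 and 5.62 after depletion, against 9.06 and 10.10 in exponential phase, in not2, while the wild-type values were 7.61 and 7.25 against 8.37 and 8.07. RPL16B (-2.28 ± 0.31, adjusted p = 0.000277), RPL13A (-2.03 ± 0.41, adjusted p = 0.00467) and RPP2B (-1.89 ± 0.35, adjusted p = 0.00267) followed. Of the stalk genes, 4 of 5 were among the 11, the fifth being RPP2A (-1.37 ± 0.69, adjusted p = 0.241). The stalk calls of RPP0, RPP1A and RPP1B were each lost in some of the fits without 1 array, at adjusted p of up to 0.0558, 0.0966 and 0.12. The count of 11 became 7 without not2 exponential replicate 2, 6 without wild-type exponential replicate 2 or either wild-type depletion array, and 18 (7 higher, 11 lower) without not2 depletion replicate 2.

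In not4, whose exponential group is 1 array, 5 members had a difference called higher and none lower (median 0.71), where 1.79% of all genes were called higher and their median was -0.20. RPS9B (2.18 ± 0.45, adjusted p = 0.0127) kept its call in every fit with 1 array left out, though none of these left out the not4 exponential array. RPP2A (3.51 ± 0.78) and RPS7B (2.61 ± 0.56) lost theirs without some of the wild-type arrays, at adjusted p of up to 0.0599 and 0.0538, and RPL7B (2.70 ± 0.56) without wild-type exponential replicate 1 (0.0536) or wild-type depletion replicate 1 (0.0594). On the other probe set of RPS7B the difference was 0.97 and was not called (adjusted p = 0.303). The count of 5 became 2 without wild-type exponential replicate 1 and 3 without replicate 2, 1 without wild-type depletion replicate 1 and 2 without replicate 2. It was 9 without not4 depletion replicate 1, 19 without replicate 2, and 20 without either not2 depletion array. In caf1, 1 member had a difference called, RPL22B at -2.25 ± 0.52 (adjusted p = 0.0241), where 1.56% of all genes had a difference called lower. It was lost without caf1 exponential replicate 2 or any 1 wild-type array, at adjusted p of 0.0685 to 0.0998, and without the caf130-labelled arrays (0.0604). In the caf130-labelled strain the median difference was -0.87, against -0.14 over all genes. No member was called by limma, where 0.0354% of all genes were called. At an unadjusted p under 0.05, 40 members had a lower response, where 7.04% of all genes did.

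In exponential phase few members were called different from wild type. By limma's adjusted p, 1 member was higher in caf1 (3.39% of all genes were called higher), 1 in the caf130-labelled strain (0.389%) and 1 in ccr4 (4.1%), and none was called either way in not3 (3.06% of all genes) or not5 (5.23%). At an unadjusted p under 0.05 there were 2 of 80 members in not3, where 19% of all genes passed that threshold, and 2 in not5, where 17.9% did. In the order named, the members' medians were 0.15, 0.25, -0.23, -0.01 and -0.34, against 0.07, 0.13, -0.12, 0.05 and -0.06 over all genes. Below wild type lay 22, 22, 64, 41 and 75 of the 80 members. RPS14B was the called member in caf1 (11.31 and 11.21, against 10.17 and 10.21 in wild type, 1.07 ± 0.26, adjusted p = 0.0232) and in ccr4 (11.55 and 10.94, 1.05 ± 0.26, adjusted p = 0.0194). Both calls were lost without either wild-type exponential array, at adjusted p of 0.104 to 0.147, the caf1 call without either caf1 exponential array (0.0686 and 0.156) and the ccr4 call without ccr4 exponential replicate 1 (0.269). RPL9B was the called member in the caf130-labelled strain (1.53 ± 0.35, adjusted p = 0.046), and lost its call without any 1 of 14 arrays. With 1 array left out, these 5 counts ran from 0 to 3 members.

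In not2, 8 members were lower and 1 higher in exponential phase (median -0.18), where 7.07% of all genes were called lower and 15.5% higher and their median was 0.15. RPS28B read 10.36 and 10.17 in not2, against 11.59 and 11.35 in wild type (-1.20 ± 0.26, adjusted p = 0.0032), and kept its call in every fit with 1 array left out, as on its other probe set (-1.17). RPL9A (-1.59 ± 0.45), RPS0A (-1.08 ± 0.31), RPL33A (-0.94 ± 0.27) and RPL9B (1.36 ± 0.35) each lost theirs without 2 or 3 of the 4 arrays compared. The count of 9 became 3 without not2 exponential replicate 2 and 2 without wild-type exponential replicate 1 or replicate 2. It was 18 without either not2 depletion array, and 5 under quantile normalization.

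On the single not4 exponential array, 6 members were lower than in wild type and none higher (median 0.11), where 3.43% of all genes were called lower and the median of all genes was 0.17. RPP2A read 8.36 in not4, against 11.80 and 11.90 in wild type (-3.49 ± 0.60, adjusted p = 0.00184), and RPS28B read 9.93, against 11.59 and 11.35 (-1.54 ± 0.32, adjusted p = 0.00657). RPS28B lost its call without wild-type exponential replicate 1 (0.0536), as RPS7B did (0.057). RPS7B was at -1.99 ± 0.43 on the set used but at -0.21 on its other set, where it was not called. RPL7A (-1.62 ± 0.46) lost its call without wild-type exponential replicate 1 or replicate 2. On its family set RPL7A was at -2.32, and on another set at -0.53 and not called there. The count became 1 without wild-type exponential replicate 1, and 3 without wild-type exponential replicate 2 or without the caf130-labelled arrays. With 1 array, the not4 exponential group is assumed to vary like the others.

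Paralog pairs were compared through the change, with depletion, of the log2 difference between the A and the B copy within each array, averaged over the 6 strains (22 arrays). Both copies were measured in 31 pairs. An exact two-sided permutation test that exchanged the condition labels within strains, adjusted over the 31 pairs, called 14 of them. The B copy fell more in 9 and the A copy in 5, and 9 pairs had the same sign in each of the 6 strains. The size of the change ran from 0.0195 to 2.45, with a median of 0.527. Each ± given for a pair comes from the spread of replicate arrays within groups. Differences between strains do not enter it.

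RPL15A and RPL15B differed most. RPL15A, the main copy, read 7.67 and 7.40 after depletion in wild type, against 10.70 and 10.83 in exponential phase, while RPL15B stayed between 8.69 and 9.08 there. Their difference changed by -2.45 ± 0.14 over the strains (adjusted exact p = 0.00106), from -3.84 in the caf130-labelled strain to -0.99 in not4, and its raw p of 8.6e-05 is the smallest these permutations can give. RPS26A against RPS26B changed by 1.97 ± 0.20 (adjusted exact p = 0.00106), with the B copy falling more in all 6 strains, least in ccr4 (0.38). RPL7A against RPL7B changed by 1.48 ± 0.12 (adjusted exact p = 0.00106), and that value holds for the RPL7A set that was used.

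RPL14A against RPL14B changed by -1.13 ± 0.22 (adjusted exact p = 0.00166) and RPL37A against RPL37B by -0.92 ± 0.15 (adjusted exact p = 0.00106), the A copy falling more in every strain. RPP2A against RPP2B was at -1.23 ± 0.31 and was not called (adjusted exact p = 0.0585): the difference was negative in 5 strains and 2.11 in not4, where the RPP2A exponential array was low. The pairs with an autoregulated copy, RPS28A and RPS28B (0.89 ± 0.12, adjusted exact p = 0.0133) and RPS14A and RPS14B (0.67 ± 0.17, adjusted exact p = 0.0133) were called, with the B copy falling more in 5 and 4 of the 6 strains, while RPL22A and RPL22B were not (0.32 ± 0.15, adjusted exact p = 0.286). At the other end, RPS10A and RPS10B (-0.12 ± 0.08), RPS9A and RPS9B (0.03 ± 0.11) and RPP1A and RPP1B (-0.02 ± 0.18) had the smallest changes and were not called, with adjusted exact p of 0.239, 0.839 and 0.926. Family probe sets were part of 9 pairs, 5 of which were called, and such sets can draw the values of both copies together. The values of the RPS9 and RPS10 pairs come from such sets alone. In wild type RPS9B changed by -5.35 and RPS10B by -0.63 on their other sets, against -3.93 and -1.58 on the sets used. With unsuffixed sets alone, 6 of 15 pairs were called.

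**Figure D4:**
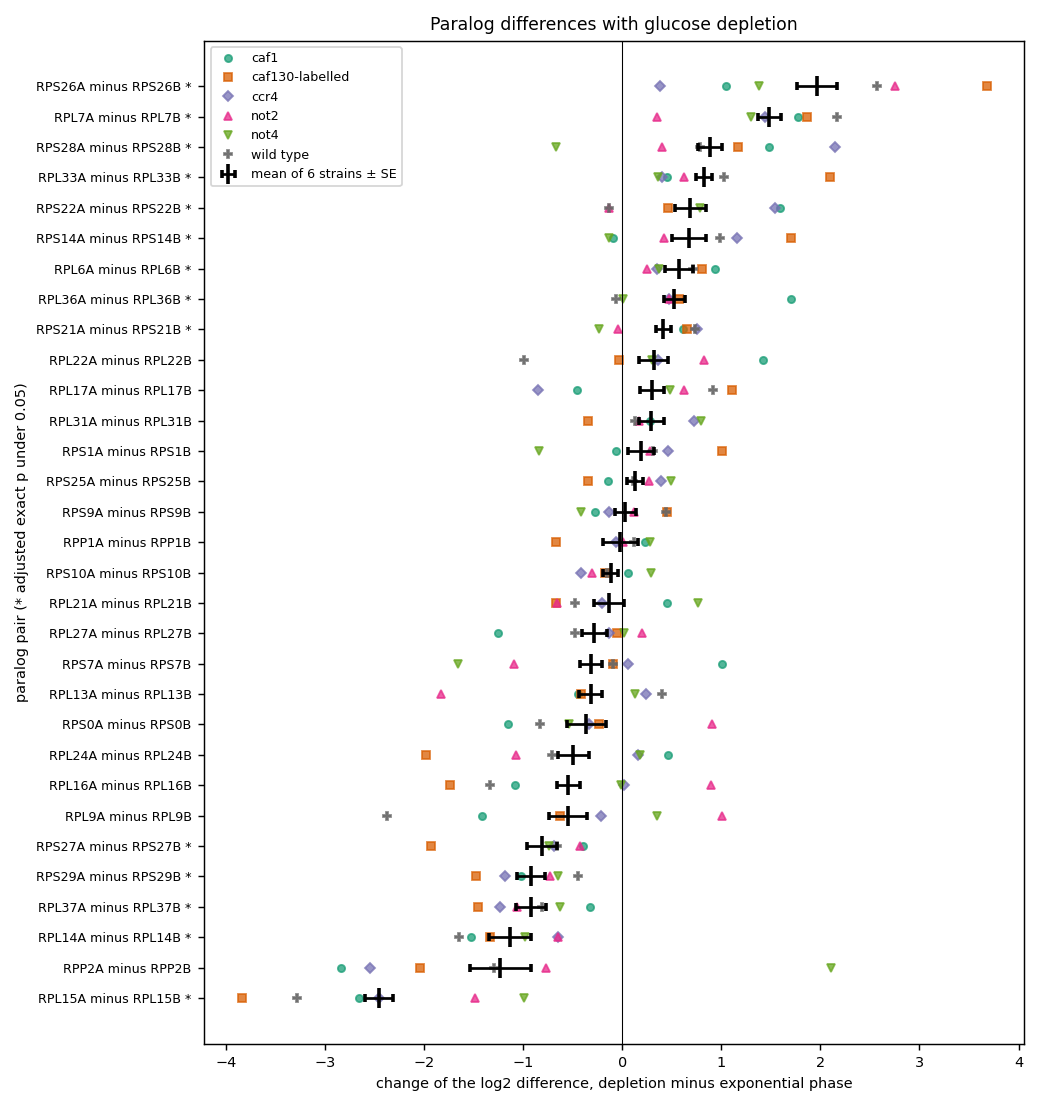
Change with glucose depletion of the log2 difference between the copies of 31 paralog pairs (depletion minus exponential phase), with 1 coloured mark per strain and the mean of 6 strains with its standard error in black. That error comes from replicate arrays within groups and does not measure the spread between strains. Pairs left of 0 have an A copy that fell more, pairs right of 0 a B copy that fell more, and stars mark the 14 pairs with an adjusted exact p under 0.05. RPL15A minus RPL15B lies at -2.45 and RPS26A minus RPS26B at 1.97.

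Other genes around the ribosome were counted from lists set by function, beside the 20.3% of all genes called higher and 18.7% called lower after depletion in wild type. Dedicated chaperones, which escort new ribosomal proteins to the site of assembly, had 10 of 11 lower after depletion in wild type (median -1.33), led by RRB1 (-2.88 ± 0.35), BCP1 (-2.31 ± 0.45) and TSR2 (-2.01 ± 0.35), the partners of Rpl3, Rpl23 and Rps26. In not2 11 of 11 and in not4 10 of 11 were lower after depletion, where 25.4% and 18.3% of all genes were called lower. In ccr4 none was lower and 2 were higher, YAR1 at 1.02 ± 0.32 and ACL4 at 0.83 ± 0.31, where 23.7% of all genes were called higher and 13.3% lower. The difference between the ccr4 and wild-type responses was called higher for 9 of 11 (median 1.90, beside 11.6% of all genes), led by LOC1 (2.81 ± 0.64) and RRB1 (2.61 ± 0.49).

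The lists of regulators are short, and nothing is read from their counts beside the 20.3% of all genes called higher and 18.7% lower in wild type. Of 12 regulators of ribosomal protein gene transcription, 1 was higher after depletion in wild type, the corepressor gene CRF1 (0.90 ± 0.33), and 3 were lower, led by UTP22 (-1.62 ± 0.35) and RRP7 (-1.24 ± 0.42). Against wild type after depletion, CRF1 was higher in not2 (1.91 ± 0.33) and RAP1 lower (-1.25 ± 0.35), and HMO1, for a protein that binds many of these promoters, was lower in ccr4 (-1.92 ± 0.29) while RRP7 was higher (1.49 ± 0.42). In the TOR and protein kinase A list, 13 of 14 genes were measured, and 4 were higher and 3 lower after depletion in wild type. BCY1, the inhibitory subunit of protein kinase A, led with 1.67 ± 0.35, followed by the kinase genes YAK1 (1.33 ± 0.40) and TPK2 (1.27 ± 0.36).

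Of 7 measured ribosome-associated proteins, 4 were lower after depletion in wild type, led by ASC1 (-2.18 ± 0.28), which sits on the small subunit, and the ribosome-binding STM1 (-1.59 ± 0.28), followed by the chaperone gene SSZ1 (-1.17 ± 0.35). Against wild type after depletion, 5 of the 7 were lower in not2 (14% of all genes lower), led by ZUO1 (-1.79 ± 0.29) and SSZ1 (-1.77 ± 0.35). Of 10 ribosome quality control genes, 1 was higher and 3 lower in wild type, among them GCN1 (-2.08 ± 0.55), GCN20 (-1.13 ± 0.31) and RKR1 (-1.03 ± 0.32). Of the mitochondrial ribosomal protein genes, given for comparison, 6 of 67 were higher and 1 lower after depletion in wild type (median 0.22), where 20.3% and 18.7% of all genes were, and in ccr4 40 were higher and none lower (median 1.12), where 23.7% and 13.3% were. Against wild type after depletion, 13 of the 67 were higher and none lower in caf1 (8.03% of all genes higher), 41 and none in ccr4 (15.2%), 16 and 1 in not2 (14%), and 1 and 2 in not4 (5.92%), and none was called in the caf130-labelled strain.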

How the data were processed

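Total RNA from 25 yeast cultures (14 groups) was labelled and hybridised to Affymetrix arrays by the standard procedure, per the labels' protocols. The authors deposited 1 value per probe set and array on what was taken as a log2 scale, normalized between arrays (method not given in the sources used here). That scale was read from the values' range (1.36 to 13.94) and from array medians of 5.20 to 5.37. The number of arrays limits the precision. The design text says that problematic arrays were left out and that samples were prepared independently a second time.

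Of 9275 probe sets, 6504 were annotated to 1 gene, 328 to several and 2443 to none. Each of 5656 genes, all matched to the R64 gene table, was represented by its single-gene probe set of highest mean. limma 3.58.1 (R 4.3.3) was fitted to all 25 arrays with 1 mean per group and an intensity trend in eBayes, so groups of 1 array borrow the shared spread (11 residual degrees of freedom). There were 23 comparisons, with Benjamini-Hochberg adjustment over all genes in each, called at 0.05. Paralog differences were tested by 11664 exact permutations. Tables were summarised with pandas 2.3.3 under Python 3.11.15, and figures drawn with matplotlib 3.10.9. The fit was tested on simulated data.

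The members and lists were chosen with earlier results of these data known. Named members were the 5 lowest and 5 highest in the wild-type response, up to 4 called members each way in the other comparisons of strains, the paralog pairs of largest and smallest change, stalk, fusion, Rps7 and autoregulated genes with their paralogs, and genes whose probe sets disagreed. Alternatives were quantile normalization, dim probe sets left out, other probe set choices, no trend, a replicate block, and each array left out. Leaving out family sets or the caf130-labelled arrays was added after seeing the data, the latter planned for the paralogs. Replicate numbers did not pair the arrays: over 55 pairs of groups, deviations correlated at -0.552 to 0.473 (median -0.016).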

Additional observations from a re-analysis of the deposited data

Results flagged for a closer look

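The results below were picked out because the response to glucose depletion differed between a null strain and wild type in a test of that difference (limma, adjusted over all genes). In ccr4 there were 17 such members of 80, where 11.6% of all genes had a difference called higher, with the greatest differences for RPS26B (2.71), RPL9A (2.44), RPL24A (2.31) and RPS9B (2.30), all in the direction of a smaller fall in ccr4. In not2 there were 11, where 4.54% of all genes were called lower, led by RPL9B (-2.76), RPL16B (-2.28), RPL13A (-2.03) and the stalk gene RPP2B (-1.89), all in the direction of a greater fall in not2. In not4 there were 5, where 1.79% of all genes were called higher, among them RPP2A (3.51), RPL7B (2.70), RPS7B (2.61) and RPS9B (2.18). All 5 differences include the single not4 exponential array. On it RPP2A, RPS7B and RPL7B read lower than on any other exponential array. In caf1 there was 1 of 80, RPL22B (-2.25), a share of the members below the 1.56% of all genes called lower. Its value includes a single caf1 depletion array.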

How the results depend on the processing

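Of 73 named results that passed the threshold, 45 kept their call under every alternative run, 27 lost it without some 1 array and 14 under another setting. No fit left out the only array of a group. The number of called members in wild type's fall with depletion was 69 to 77 with 1 array left out. It was 60 to 74 in caf1, 76 to 79 in the caf130-labelled strain, 45 to 60 in ccr4, 76 to 80 in not2 and 39 to 60 in not4. Against wild type after depletion it was 1 to 21 in caf1, 0 to 2 in the caf130-labelled strain, 11 to 38 in ccr4, 19 to 49 in not2 and 13 to 43 in not4. In exponential phase it was 0 to 3 in caf1, 0 to 2 in the caf130-labelled strain, 0 to 2 in ccr4, 2 to 18 in not2, 0 to 1 in not3, 1 to 6 in not4 and 0 to 1 in not5. For differences of responses it was 0 to 5 in caf1, 0 to 1 in the caf130-labelled strain, 4 to 29 in ccr4, 6 to 18 in not2 and 1 to 20 in not4, and 13 to 16 paralog pairs were called. Unsuffixed probe sets alone hold 52 members, and there the falls with depletion numbered 48 in caf1, 50 in the caf130-labelled strain, 37 in ccr4, 52 in not2, 34 in not4 and 46 in wild type. With them, 9 members differed after depletion in caf1 and 16 in ccr4, 8 in the ccr4 difference of responses, 2 in exponential ccr4, 1 in not5 and 0 in the caf130-labelled strain, and 6 paralog pairs were called. Fewer genes are tested there. Without the caf130-labelled arrays the counts were 0 for exponential caf1, 3 for exponential not4, 8 for caf1 after depletion and 0 for the caf1 difference, with fewer samples behind the shared spread. Quantile normalization gave 5 in exponential not2, leaving out dim probe sets gave 2 in the caf1 difference, and leaving out family sets gave 0 in the exponential caf130-labelled strain; the cause was not tested. The replicate block also gave 0 there, and moved no other count of calls by over 1.5 times. Signs turned for some values. RPL15B in wild type was -0.0238 under quantile normalization and ran from -0.148 to 0.243 with 1 array left out, and RPL7A, called at -1.84 there, was 0.359 on its unsuffixed set. RPP2A in ccr4 after depletion, called at -1.34, ran from -2.72 to 0.0447 with 1 array left out. The members' median was 0.0538 in caf1 after depletion without wild-type depletion replicate 1 (-0.0108 with all arrays), and ran from -0.748 to 0.0646 in the not2 difference with 1 array left out. RPS9A against RPS9B was -0.0438 under quantile normalization and -0.0529 without the caf130-labelled arrays and ran from -0.0211 to 0.0838 with 1 array left out, and RPP1A against RPP1B was 0.0082 with all probe sets averaged and 0.111 without the caf130-labelled arrays, and ran from -0.117 to 0.0784 with 1 array left out.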

Other observations

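The ribosomal protein genes that share probe sets with a near-identical copy were read through 59 shared sets, fitted among all 9275 probe sets. They gave a second view of the same subunits on probe sets other than those that stood for the members. The sets cover 54 genes outside the members, and also pairs of members such as RPS9A and RPS9B. Whether single probes recur between sets was not tested. Of these sets, 50 were lower after depletion in caf1 (median -1.74, where 12.1% of all probe sets were lower), 59 in the caf130-labelled strain (-2.69, 19.3%), 42 in ccr4 (16.2%), 56 in not2 (-2.38, 16.8%), 36 in not4 (-1.24, 11.7%) and 58 in wild type (-1.84, 15.1%). After depletion, 16 sets were higher in ccr4 than in wild type and none lower (median 0.54, where 9.43% of all probe sets were higher), and 15 were higher in not4 and none lower (median 0.72, 4.86%). In not2, 16 were lower and none higher (median -0.51, where 10.9% of all probe sets were lower). The same arrays gave these values, so they do not stand apart from the members' values as independent samples.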
